A study of Mus musculus with 30 samples.

Results

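A set of 8 genes of innate immune sensing were followed, 8 of 21631 protein-coding genes on mouse chromosomes 1 to 19 and X. They are Tlr2, Tlr4, Cd14 and Myd88 of Toll-like receptor signalling, Nlrp3, Pycard and Casp1 of the inflammasome, and Il1b. They were chosen by name, with earlier results of these data known, so counts among the 8 are descriptions. Each was read at its GRCm38 (mm10) coordinates. The readings were the length of H3K4me3 peaks within the gene plus 1 kb on each side, and the V5 and AM sites within 10 kb. H3K4me3, trimethylation of lysine 4 of histone H3, is a mark of active gene starts, and ChIP-seq maps it by immunoprecipitating the marked chromatin and sequencing its DNA.

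H3K4me3 was mapped in ER-Hoxa9-Lys-GFP cells, C57BL/6 mouse cells cultured in medium with serum and stem cell factor. They carry HOXA9, a transcription factor of blood progenitors, fused to ER, the estrogen receptor part that keeps the fusion active only while estradiol (E2) is present, and the series asked how chromatin changes around commitment to myeloid differentiation. The 5 conditions were continuous E2, 24 h without E2 followed by 96 h with E2 restored, 40 h without followed by 80 h restored, 72 h without followed by 48 h restored, and 120 h without E2 and no restoration. HOXA9 itself was mapped through its tags in untreated V5-Hoxa9-AM cells, with ChIPs titled V5 and AM, and in V5-ER-Hoxa9-AM cells, with V5 and AM in E2 and V5 after 72 h without E2 and 48 h restored, all C57BL/6. The labels do not say whether any line is a single clone. The tagged lines are not the line of the H3K4me3 lists, and the antibody given for both AM samples is V5, so they were taken as AM from their titles.

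Each condition had 1 library, so differences between conditions have no replicate check and no test was made. The H3K4me3 lists hold peak coordinates without heights, and read depth is unknown. They held 17497 peaks in E2 and 22871, 21329, 21790 and 23835 peaks at 24, 40, 72 and 120 h, covering 10.4, 14.2, 14.9, 16.0 and 17.3 Mb. As the lists differ in length, each count is set beside the same count over the 11848 genes with a peak in at least 1 list. A longer peak can reflect more cells carrying the mark or more mark per cell, and the lists cannot tell these apart. Longer withdrawal came with shorter restoration, and the effects of the 2 times cannot be told apart either.

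Toll-like receptors sit on the cell surface or in endosomes and recognise microbial molecules. TLR4 senses bacterial lipopolysaccharide, which CD14 delivers to it, TLR2 senses bacterial lipoproteins, and MYD88 is the adaptor that carries most of their signals to the transcription factor NF-kB. NLRP3 is a cytosolic sensor that assembles with the adaptor ASC, the product of Pycard, and the protease caspase-1, and caspase-1 cuts the precursor of interleukin-1 beta, the Il1b product, into its secreted form. Mature neutrophils, monocytes and macrophages are among the main users of both systems.

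Promoters are shown for Nlrp3 and Il1b, which had no H3K4me3 in E2 and a V5 site over the gene start, and for Myd88 and Tlr2, which were marked in every list. The sequences are RefSeq promoter windows on GRCm38.p6, from 250 bases before to 50 bases after the start, 5′ to 3′ on the gene's strand. Capitals are matches on either strand to one of 7 motifs. GAGGAA is the core bound by PU.1, a factor that myeloid cells depend on. The C/EBP motif, of another myeloid factor family, was searched as TTGCNNAA. That of HOXA9 with its partner PBX was TGATTTAT, and that of AP-1, a factor of stress and immune signalling, was TGANTCA. The interferon response motif and one narrow form of the NF-kB motif were also searched, together with the TATA box, which places the start of transcription and was read as TATAAA. The Nlrp3 window is that of the downstream of 2 annotated starts, chr11:59542436-59542735, plus strand. The Il1b window is chr2:129371090-129371389, the Myd88 window chr9:119339969-119340268 and the Tlr2 window chr3:83841559-83841858, all minus strand.
Nlrp3 promoter: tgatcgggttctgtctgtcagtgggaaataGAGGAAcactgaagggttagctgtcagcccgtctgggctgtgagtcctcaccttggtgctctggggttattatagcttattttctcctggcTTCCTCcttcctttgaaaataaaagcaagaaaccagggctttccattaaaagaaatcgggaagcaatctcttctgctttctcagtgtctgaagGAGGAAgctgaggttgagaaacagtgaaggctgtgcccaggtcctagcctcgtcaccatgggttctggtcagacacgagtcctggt
Il1b promoter: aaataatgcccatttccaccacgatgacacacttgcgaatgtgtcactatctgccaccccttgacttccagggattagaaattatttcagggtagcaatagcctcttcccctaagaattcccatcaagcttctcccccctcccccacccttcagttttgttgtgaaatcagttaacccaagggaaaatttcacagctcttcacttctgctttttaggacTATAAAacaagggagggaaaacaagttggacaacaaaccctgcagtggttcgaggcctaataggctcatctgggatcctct
Myd88 promoter: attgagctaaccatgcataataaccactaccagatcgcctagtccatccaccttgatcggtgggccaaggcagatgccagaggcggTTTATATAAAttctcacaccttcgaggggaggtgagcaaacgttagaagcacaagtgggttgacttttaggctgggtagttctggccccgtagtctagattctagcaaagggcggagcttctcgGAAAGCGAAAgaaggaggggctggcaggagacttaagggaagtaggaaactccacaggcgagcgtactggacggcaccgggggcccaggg
Tlr2 promoter: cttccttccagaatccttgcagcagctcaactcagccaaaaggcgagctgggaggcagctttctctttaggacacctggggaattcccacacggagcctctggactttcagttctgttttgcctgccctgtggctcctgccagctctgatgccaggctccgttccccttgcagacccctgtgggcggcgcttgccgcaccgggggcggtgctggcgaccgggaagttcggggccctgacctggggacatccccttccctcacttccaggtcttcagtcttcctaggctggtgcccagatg

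The Nlrp3 window held 3 GAGGAA matches, at -220 and -36 from the start on the gene's strand and at -129 on the other strand, and 27.2% of the 21045 promoter windows in the table held at least 1. The Il1b window held a TATAAA at -31, and 12.7% of windows held one. The Myd88 window held GAAAGCGAAA, a match to the interferon response motif, at -40, one found in 3.38% of windows, and a pair of overlapping TATAAA matches on opposite strands. The Tlr2 window held no match to the forms searched, which says only that those letters were not in it. Windows were also found for Pycard and Casp1 and for the upstream Nlrp3 start, giving 7 windows of 6 genes, and none of the 7 held the AP-1 or HOXA9 letters, which 7.04% and 0.822% of all windows held. The form of the NF-kB motif searched, present in only 0.428% of all windows, had no match in the 7 either, but its close variants were not searched and may stand in the printed windows in lower case. GAGGAA was in 3 of the 7, and TTGCNNAA was in 1, that of Pycard, against 10.3% of all windows. The 4 printed windows had 49.3% (Nlrp3), 45.7% (Il1b), 54% (Myd88) and 62% (Tlr2) G or C and held 5, 3, 13 and 11 CpG pairs, where the median window had 56.7% and 13. Tlr4 and Cd14 had no window.

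At 120 h without E2 all 8 genes carried H3K4me3, and in E2 5 of them did. A peak in both lists was common, as 10096 of the 11848 genes had one in each. Nlrp3, Cd14 and Il1b had peaks at 120 h and none in E2, as did 11.9% of all genes, and none of the 8 had the reverse, seen in 0.777%. Tlr2 and Tlr4 had peaks several times longer at 120 h, while those of Myd88, Pycard and Casp1 were longer by less than 2-fold. A gene was called higher when the log2 ratio of peak lengths, with 50 bp added to each, was 1 or more, and lower when it was -1 or less. By that rule 5 of the 8 genes were higher at 120 h than in E2, against 31.9% of all genes, and 0 of the 8 were lower, against 1.33%. Over genes with a peak in both lists, the median log2 ratio was 0.66 for the 5 such genes here and 0.49 for all 10096, which is the general lengthening between the lists.

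**Figure D1:**
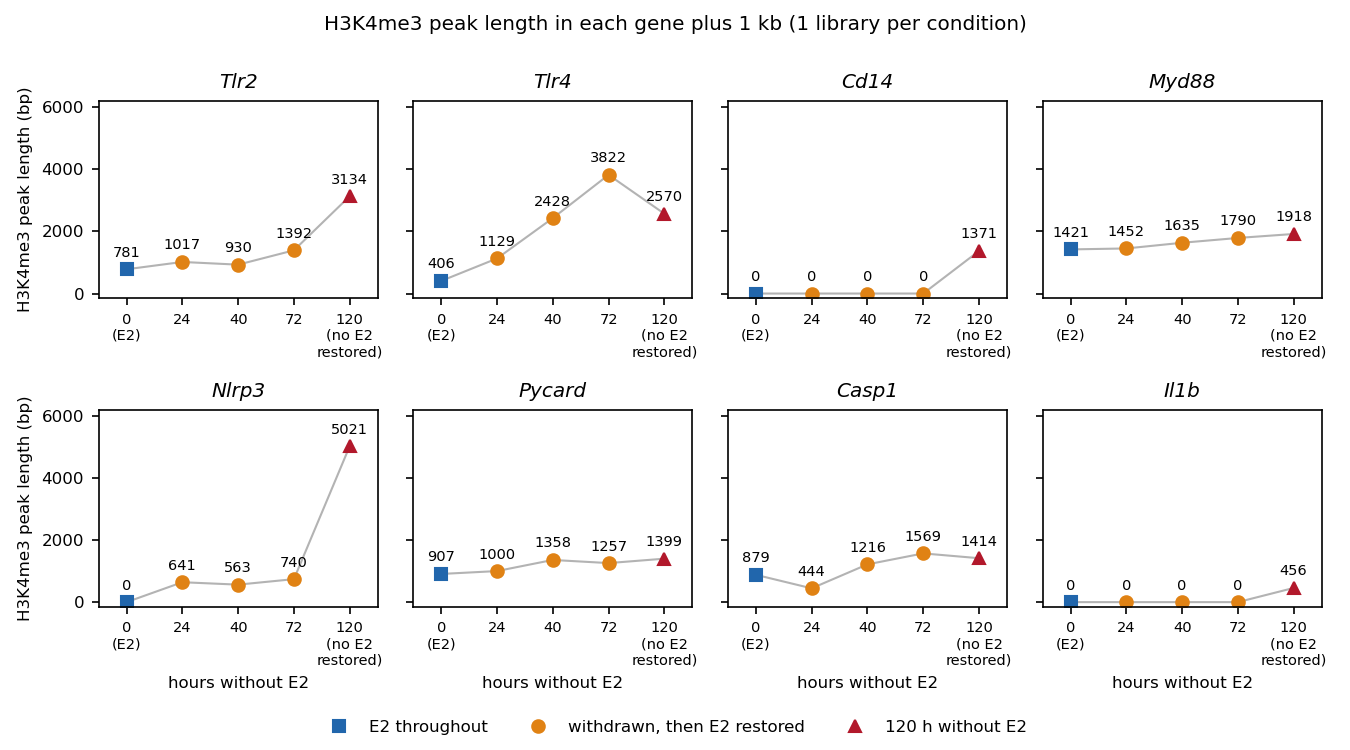
Length of H3K4me3 peaks (bp, vertical axis) within each gene plus 1 kb in the 5 lists, ordered by hours without E2, with E2 restored afterwards at 24, 40 and 72 h; each point is 1 library. Nlrp3, Cd14 and Il1b start at 0 in E2, and Nlrp3 reaches 5021 bp at 120 h, while Myd88 runs from 1421 to 1918 bp.

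Among the receptors, Tlr2 (gene ID 24088, chr3:83836272-83841824, minus strand) was marked in every list. Its peaks covered 781 bp in E2 and 1017, 930, 1392 and 3134 bp at 24, 40, 72 and 120 h. The 24 and 40 h lists lay close to E2, 72 h was somewhat longer, and 120 h stood apart with 4.01-fold the length of E2 (log2 ratio 1.94). All 781 bp of the E2 peak lay inside the 120 h peaks. The added length ran into the gene: peaks reached 3082 bp past the start at 120 h and 698 bp past it in E2. The printed Tlr2 promoter window was covered over 132 bp in E2 and over 300, 268, 206 and 300 bp at 24, 40, 72 and 120 h. Cover of that window did not set 120 h apart. Counted only within 1 kb of the gene ends, the log2 ratio was 0.46, within 1 kb of the start it was 0.71, and the call was lost in both.

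Tlr4 (gene ID 21898, chr4:66827551-66846581) behaved differently across the series. Its peaks covered 406 bp in E2 and 1129, 2428, 3822 and 2570 bp at 24, 40, 72 and 120 h. The length was above E2 at every withdrawal and longest at 72 h restored, a place shared by Casp1 and by 28.9% of all genes. At 120 h it was 6.33-fold that of E2 (log2 ratio 2.52). All peaks lay around the end of the gene with the lower coordinate, where the E2 peak spanned chr4:66827108-66827513. All 2570 bp marked at 120 h were also marked at 72 h restored, and 1987 bp of them at 40 h restored.

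Cd14 (gene ID 12475, chr18:36725064-36726815) had a peak at 120 h and in no other list. That peak, chr18:36725322-36726692, covered 1371 bp, lay wholly within the gene and took up 36.5% of the gene plus 1 kb, the second highest share of the 8 after the 41.5% of Tlr2. Lengths of 0 bp in E2 and at 24, 40 and 72 h mean that no peak was called, not that the mark was absent. Only Cd14 and Il1b of the 8 had this pattern, which 3.28% of all genes shared.

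Myd88 (gene ID 17874, chr9:119335934-119340018, minus strand) had 1 peak over its start in every list. It covered 1421 bp in E2 and 1452, 1635, 1790 and 1918 bp at 24, 40, 72 and 120 h. The lengths followed the hours without E2 in order, as they did for 10.2% of all genes, but the whole range was 1.35-fold (log2 ratio 0.42 at 120 h against E2). The printed promoter window was covered over all 300 bp in each list. The same peaks also fell within 1 kb of the neighbouring gene Acaa1a, so part of this mark may belong to that gene.

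Of the inflammasome genes, Nlrp3 (gene ID 216799, chr11:59541569-59566955, plus strand) showed the widest span of lengths. No peak was called in E2, and peaks covered 641, 563, 740 and 5021 bp at 24, 40, 72 and 120 h. The 3 restored lists lay close together, and all were far below 120 h. A peak in every list but E2 was seen for 4.56% of all genes. Its log2 ratio at 120 h against E2, which depends on the added 50 bp as E2 is at 0, ranked above that of 99.97% of all genes.

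The Nlrp3 peaks differed in place as well as in length. Each restored list had 1 peak, chr11:59541908-59542548 at 24 h, chr11:59541720-59542282 at 40 h and chr11:59541675-59542414 at 72 h, and all of them lay between the 2 annotated starts at 59541569 and 59542686. The 120 h list had 5 peaks. One of 915 bp held all of the restored peaks' bases, and the longest, of 2983 bp, began 41 bp past the downstream start and had no counterpart in the other lists. The farthest lay 9092 bp into the gene, counted from the upstream start to the peak's end. Of the 5021 bp at 120 h, 740 bp were also marked at 72 h restored.

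Pycard (gene ID 66824, chr7:127991373-127993867, minus strand) was marked in every list. Its peaks covered 907 bp in E2 and 1000, 1358, 1257 and 1399 bp at 24, 40, 72 and 120 h. The range was 1.54-fold, with a log2 ratio of 0.60 at 120 h against E2, larger than in 51.5% of all genes and so near the middle of them. Casp1 (gene ID 12362, chr9:5298517-5307281, plus strand) covered 879 bp in E2 and 444, 1216, 1569 and 1414 bp at 24, 40, 72 and 120 h. It was the one gene of the 8 with a shorter length than E2 in any list, at 24 h, and its log2 ratio at 120 h against E2 was 0.66. Its promoter window was outside the peaks in E2 and at 24 and 40 h and covered over 206 and 231 bp at 72 and 120 h.

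Il1b (gene ID 16176, chr2:129364569-129371164, minus strand) had a single peak, of 456 bp, at 120 h and none in the other 4 lists. The peak, chr2:129370349-129370804, began 335 bp past the start and ended 790 bp past it, so none of the printed promoter window was marked in any list. It was the shortest peak length of the 8 at 120 h and below the median peak width of that list, 571 bp. With only peaks wider than their list's median, no Il1b peak remained. The peak also lay in the window of Il1bos, a neighbouring annotated noncoding RNA gene, and the lists carry no strand.

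**Figure D2:**
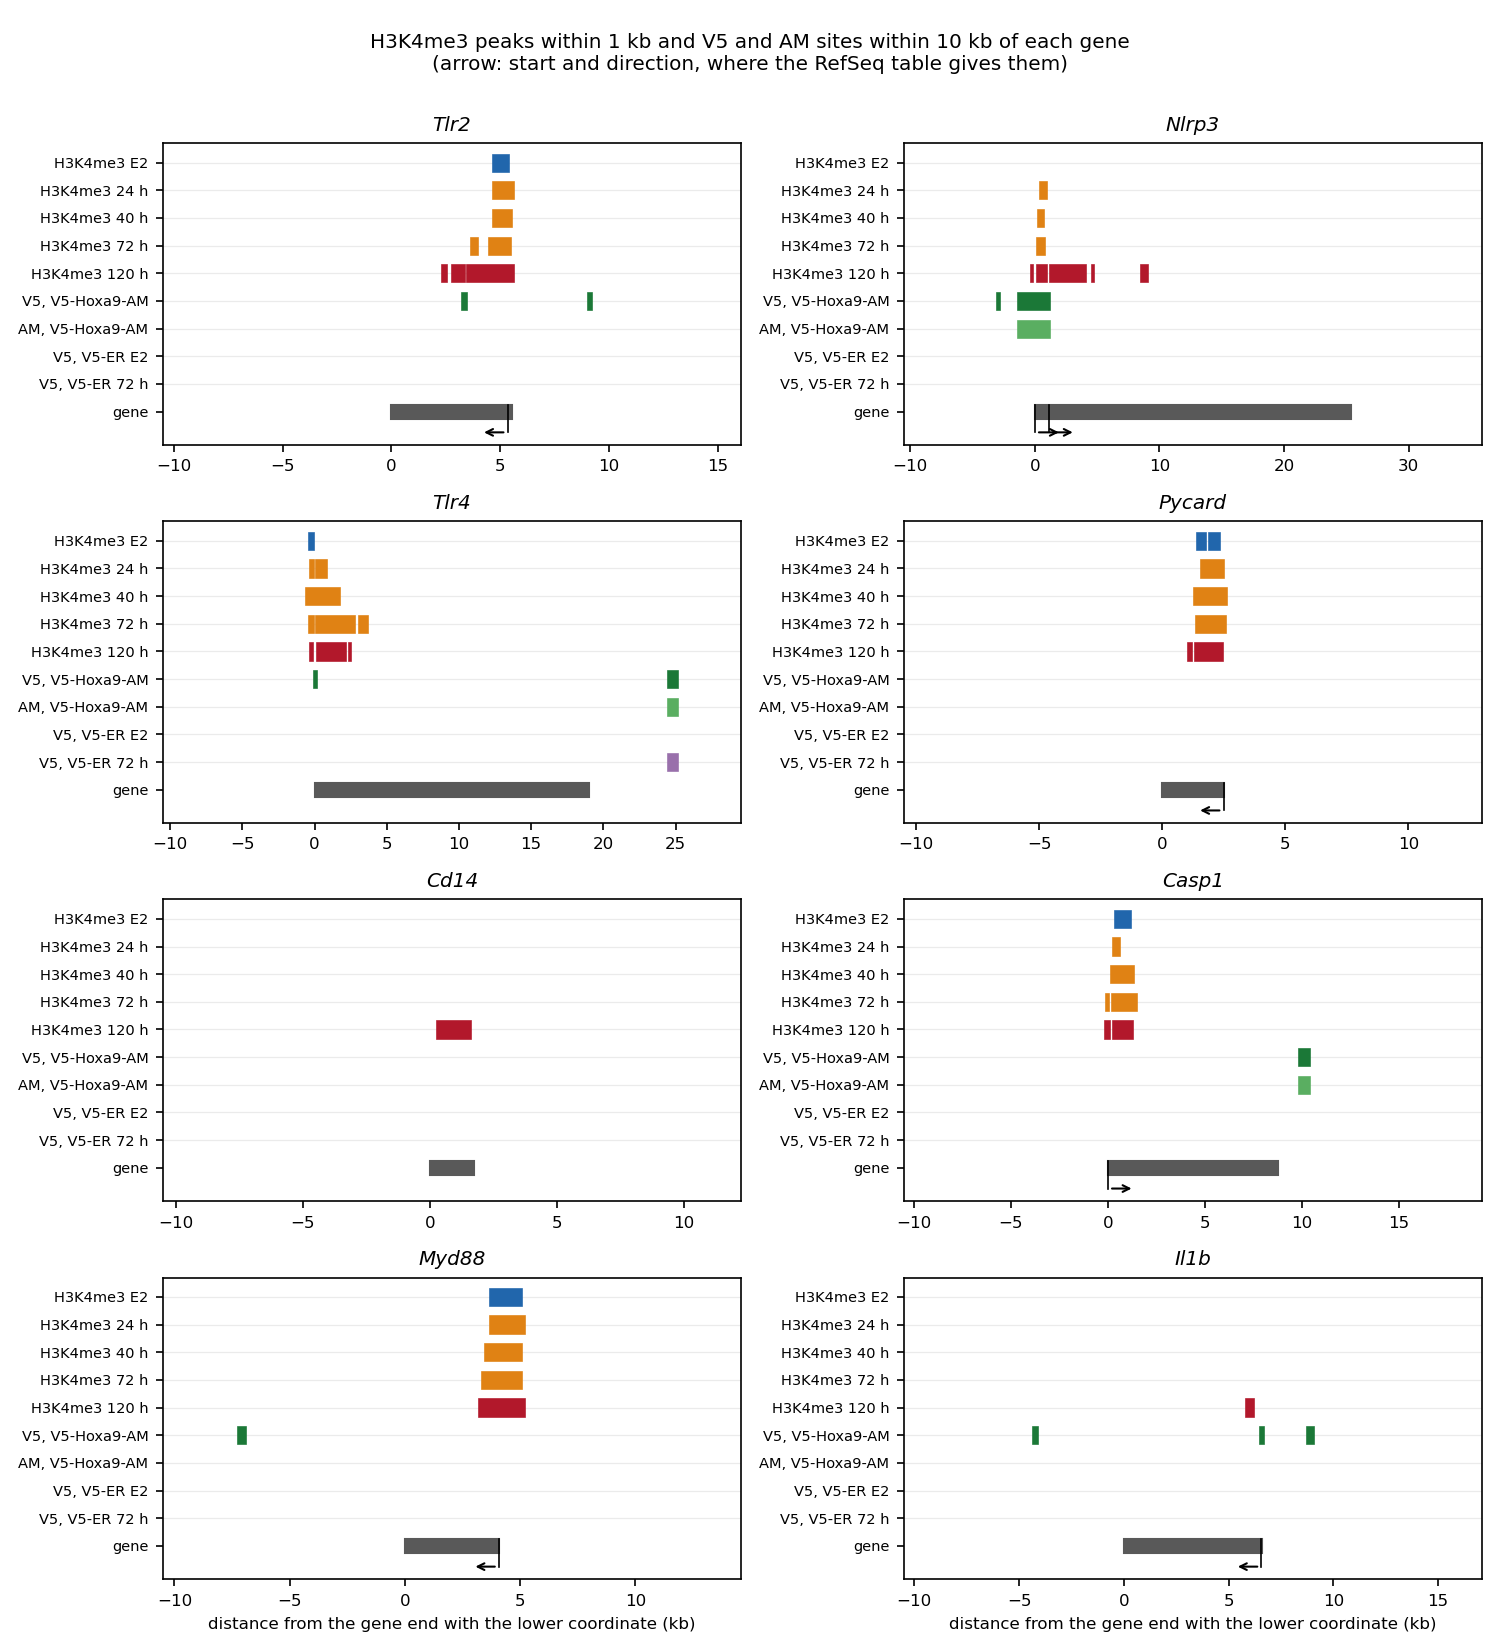
Position of the H3K4me3 peaks (filled bars) in each list, and of V5 and AM sites, along each of the 8 genes, with distance in kb on the horizontal axis and the gene drawn as a line. At Nlrp3 the 120 h peaks extend 9092 bp past the upstream start, while the restored peaks stay between the 2 starts; at Tlr4 the peaks of all lists sit at one end of the gene.

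Cells returned to E2 after a shorter withdrawal were next compared with cells kept in E2. At 24 h restored 2 of the 8 genes, Nlrp3 and Tlr4, were higher than in E2, against 16.0% of all genes. The same genes were the 2 of 8 called at 40 h restored, against 16.6%, and the 2 of 8 called at 72 h restored, against 23.5%. None of the 8 was lower in any of these comparisons, against 1.01%, 0.836% and 1.03% of all genes. These comparisons share the E2 list. The ratio for Tlr4 was 2.78-fold at 24 h, 5.98-fold at 40 h and 9.41-fold at 72 h restored over E2 (log2 ratios 1.37, 2.44 and 3.09). Casp1 at 24 h restored was the nearest to a lower call, with a log2 ratio of -0.91 against E2, below which lay 1.12% of all genes.

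The 72 h and 40 h restored lists were then set against each other. None of the 8 genes was called between them, where 6.37% of all genes were higher and 2.38% lower at 72 h. Tlr4 had the largest log2 ratio, 0.64, with 3822 bp at 72 h and 2428 bp at 40 h. Over genes marked in both lists the median was 0.36 for the 6 genes here and 0.11 for all 10734. Cd14 and Il1b had no peak in either list.

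Against 120 h without E2, the 72 h restored list was lower at 4 of the 8 genes, against 8.94% of all genes, and higher at none, against 2.52%. Nlrp3 covered 740 bp at 72 h restored and 5021 bp at 120 h (log2 ratio -2.68), and Tlr2 covered 1392 and 3134 bp (-1.14). Cd14 and Il1b had no peak at 72 h restored, against 1371 and 456 bp at 120 h. The other 4 genes did not pass the threshold in either direction: the log2 ratio was 0.56 for Tlr4, 0.15 for Casp1, -0.10 for Myd88 and -0.15 for Pycard. Within 1 kb of the gene ends 2 of the 8 genes were lower, as the Nlrp3 and Tlr2 ratios shrank to -0.61 and -0.20. Those 2 differences lay mainly more than 1 kb from the gene ends. Within 1 kb of the annotated starts, which for Nlrp3 include one inside the gene, Nlrp3 was still lower (-1.45) and Tlr2 was not (-0.30).

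**Figure D3:**
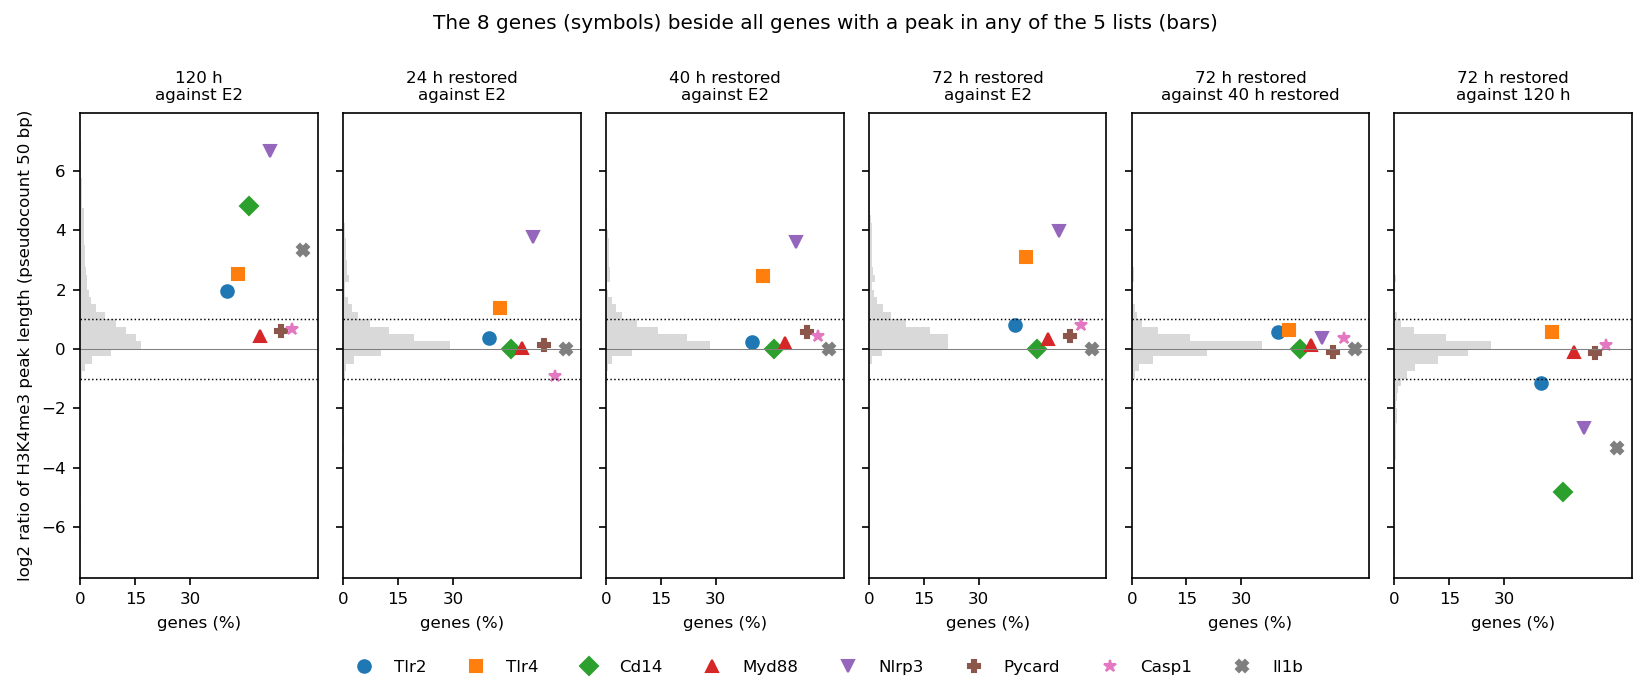
Log2 ratio of H3K4me3 peak length (50 bp added to each length, vertical axis) in 6 comparisons, for the 8 genes (symbols) and for all 11848 genes (grey bars, % of genes on the horizontal axis, which does not apply to the symbols); dotted lines mark the thresholds of 1 and -1. A symbol at 0 for Cd14 or Il1b is a gene with no peak in either list, and the height of a symbol with no peak in 1 list depends on the 50 bp; Nlrp3 and Tlr4 lie above 1 in all 4 comparisons with E2.

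Sites of tagged HOXA9 were next placed around the 8 genes. In V5-Hoxa9-AM cells the V5 list of 17006 sites put 11 sites within 10 kb of 6 of the 8 genes, all but Cd14 and Pycard, where 33.4% of all protein-coding genes and 49.4% of genes with H3K4me3 had such a site. The AM list of 6773 sites had one at 3 of the 8, Nlrp3, Tlr4 and Casp1, against 19% and 28.6%. With the ER fusion, V5-ER-Hoxa9-AM, the list at 72 h restored had one at 1 of the 8, Tlr4. The shares were 1.19% of all genes and 1.82% of genes with H3K4me3. In E2 the V5 and AM lists of that line had one at none of the 8. There the same 2 shares were 3.90% and 5.76% for V5, and 0.730% and 1.12% for AM. Those 3 lists are short, with 387 sites at 72 h restored and 1417 and 258 in E2. The lists are not independent maps, since 91.5% of AM sites had exactly the coordinates of a V5 site in the same cells. Coordinates of that V5 list also recurred in the ER fusion line, at 97.2% of the V5 sites at 72 h restored and at 76.1% (V5) and 79.5% (AM) of the sites in E2.

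The site at the Nlrp3 start, chr11:59540120-59542763, was 2644 bp wide and the widest of all 17006 V5 sites and of all 6773 AM sites. It spans both annotated Nlrp3 starts. It holds all of the printed promoter window, with its 3 GAGGAA matches, and of the upstream start's window, with no motif match. In the H3K4me3 lists it contained 0 bp of peaks in E2 and 641, 563, 740 and 1192 bp at 24, 40, 72 and 120 h, so the restored Nlrp3 peaks lay wholly within it. Another Nlrp3 site of 299 bp lay 2809 bp before the gene. Site width here is the authors' called interval and not a measure of binding strength.

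At Tlr4 a V5 site of 274 bp, chr4:66827479-66827752, lay over the lower-coordinate end of the gene and overlapped H3K4me3 in all 5 lists. The other Tlr4 site, chr4:66851927-66852734, 808 bp wide and 5346 bp beyond the gene's other end, was in the V5 and AM lists of V5-Hoxa9-AM cells and in the 72 h restored list of V5-ER-Hoxa9-AM cells, and held no H3K4me3 peak. Casp1 had 1 site, 649 bp wide and 1008 bp past the gene. It lay at the start of Casp4, its nearest gene, which encodes a caspase that senses cytosolic lipopolysaccharide, and overlapped H3K4me3 in all 5 lists by 23 to 220 bp. The Myd88 site of 363 bp was 6913 bp away and nearer to Oxsr1.

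Il1b had 3 V5 sites. One of 237 bp, chr2:129371042-129371278, spanned the gene start and held 189 bases of the printed promoter window, the TATAAA among them, while the 120 h H3K4me3 peak lay outside it. The others, of 311 and 407 bp, lay 4085 and 2089 bp from the gene. Tlr2 had a site of 272 bp inside the gene, which overlapped H3K4me3 at 120 h only, by 207 bp, and one of 209 bp at 3437 bp from it. Of the 11 V5 sites, 2 overlapped H3K4me3 in E2 and 3, 3, 3 and 4 did at 24, 40, 72 and 120 h. The 2 in E2 were the Tlr4 site, by 35 bp, and the Casp1 site at Casp4, by 46 bp. The share of all V5 sites that overlapped H3K4me3 was not computed. As the lists cover 10.4 Mb in E2 and 17.3 Mb at 120 h, these counts have no background to be read against.

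The wider pathway was read from 6 lists of 88 genes that include the 8. Of these, 78 had a peak in at least 1 H3K4me3 list, and at 120 h against E2 45 of them were higher (57.7% of the 78, against 31.9% of all genes) and 1 was lower. Without the 8 genes these counts were 40 higher and 1 lower of 70. The 31.9% is also the share to set beside the first count of each list below. Counts given there after "or" have their own shares of all genes. These are 29.1% within 1 kb of the gene start, 37.0% with only wide peaks and 21.0% after subtracting the general lengthening. In those settings 59, 64 and 78 of the pathway genes had a peak. Among the 45, Cd14, Il1b, Tlr1, Tlr9, Tlr13, Nlrp12, Il18bp, Clec4d and Clec7a had a peak at 120 h only, as did 3.28% of all genes. Such a gene counts as having a peak through that list alone, so its call adds nothing to its presence there. The lists were chosen with earlier results of these data known, and their counts are descriptions.

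Of 12 Toll-like receptors, 9 had a peak and 8 were higher at 120 h, against 31.9% of all genes. The count was 3 with only peaks wider than their list's median, against 37.0% of all genes. Tlr3, a sensor of double-stranded RNA, covered 546 bp at 120 h and 0 bp in E2. Tlr9, which senses unmethylated CpG DNA, and Tlr1, the partner of TLR2, had 425 and 229 bp at 120 h and 0 bp in the other lists, as did Tlr13, a mouse sensor of bacterial ribosomal RNA, with 217 bp. Tlr12 was the single lower gene of the 88, at 0 bp after 120 h, against 610 bp in E2. Of 16 receptor partners and adaptors all had a peak and 8 were higher, or 4 within 1 kb of the gene start. Among them were Irak2, a kinase downstream of MYD88 (2128 bp at 120 h, 0 bp in E2), Lbp, which binds lipopolysaccharide in serum (1782 and 0 bp), Ly86 (291 and 0 bp) and Tirap, the adaptor that links MYD88 to TLR2 and TLR4 (1555 and 334 bp, log2 ratio 2.06).

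Of 17 inflammasome sensors and parts, 13 had a peak and 9 were higher, or 5 after subtracting the general lengthening of 0.49. They included Nlrc4, the core of the inflammasome that answers bacterial flagellin and secretion systems (1040 bp at 120 h, 0 bp in E2), Naip2, one of its sensors (2084 and 488 bp, log2 ratio 1.99), Nlrp12 (748 and 0 bp) and Nlrp1a (389 and 0 bp). In the interleukin-1 family 10 of 13 genes had a peak and 6 were higher, or 2 with only wide peaks. Besides Il1b these included genes that restrain interleukin-1, the decoy receptor gene Il1r2 (2161 and 354 bp, log2 ratio 2.45) and the receptor antagonist gene Il1rn (684 and 0 bp). Il18rap, a receptor chain for interleukin-18, covered 1818 bp at 120 h and 560 bp in E2, and Il18bp, whose peak also lay near Rnf121, covered 185 and 0 bp.

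All 18 NF-kB genes had a peak and 8 were higher, or 5 after subtracting the general lengthening. Nfkbia, the inhibitor that holds NF-kB in the cytoplasm, covered 3576 bp at 120 h and 588 bp in E2 (log2 ratio 2.51), and Ikbkg, the regulatory subunit of the kinase that removes it, covered 4511 and 859 bp (2.33), with peaks also near Fam3a and G6pdx. Relb, an NF-kB subunit, covered 1152 and 0 bp, and Tab3 1198 and 0 bp. Of 12 other pattern receptors all had a peak and 6 were higher, or 3 with only wide peaks. Zbp1, a sensor of Z-form nucleic acid, covered 1739 and 0 bp, Nod2, a sensor of bacterial cell wall fragments, 1506 and 0 bp, and the C-type lectin genes Clec4d and Clec7a 1377 and 848 bp at 120 h and 0 bp in E2. Over genes with a peak in both lists the medians of the 6 lists ranged from 0.68 to 1.65, beside 0.49 for all genes.

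**Figure D4:**
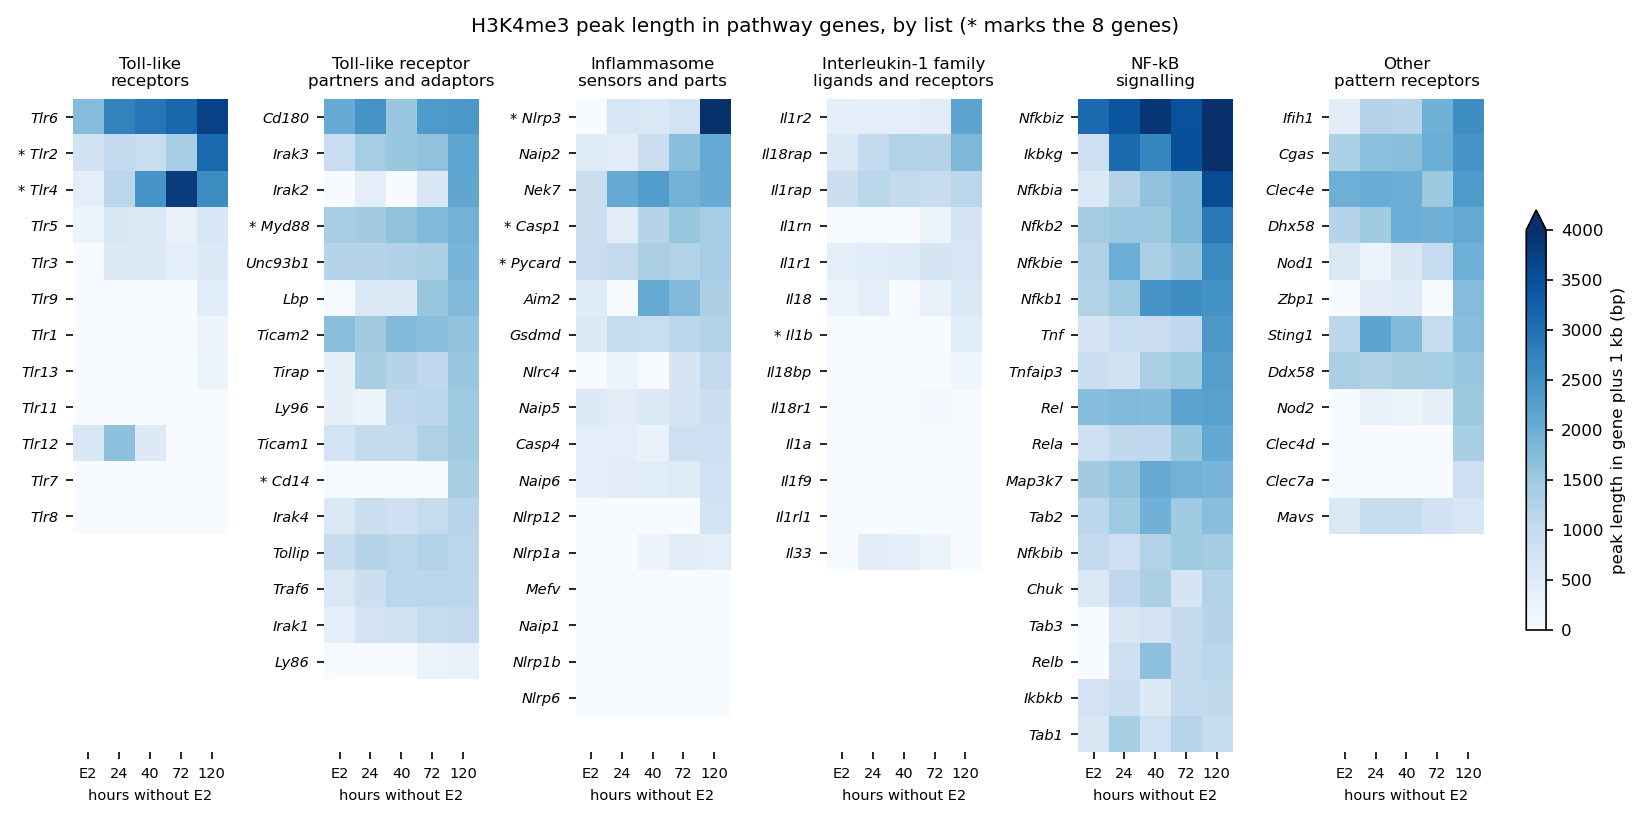
H3K4me3 peak length (colour, bp, in the gene plus 1 kb) for the 88 pathway genes (rows) in E2 and after 24, 40, 72 and 120 h without E2, with E2 restored afterwards at 24, 40 and 72 h; asterisks mark the 8 genes, and rows within a list run by length at 120 h. Within their own rows Nlrp3 and Nfkbia are darkest at 120 h and Tlr4 is darkest at 72 h, and Tlr12 is marked only up to 40 h.

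Other genes had nearly the same 5 lengths as some of the 8. By the Euclidean distance over the 5 values of log2 of length plus 50 bp, the nearest 2 genes to Nlrp3 were Fgr (0.77) and Dgat2 (0.92), and those to Tlr4 were Gda (0.66) and Tle1 (0.95), so neither had a close match. Cd14 was matched by Disc1 (0.0020) and Clec4d (0.0061), and Il1b by Asprv1 (0.0029) and Rab25 (0.0085), all of them marked at 120 h only, which leaves 1 length to match. Tlr2 lay nearest to Iffo2 (0.28) and Arrb1 (0.31), Myd88 to Trappc6a (0.050) and Ascc1 (0.12), Pycard to genes that include Lrsam1 (0.17), and Casp1 to C2cd5 (0.29) and Ercc4 (0.40).

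Markers of cell types differed between the same lists, as did genes in general. Of the 11848 genes, 11.9% had a peak at 120 h and none in E2, and 0.777% the reverse. All peaks together covered 10.4 Mb in E2 and 17.3 Mb at 120 h, so small marker differences may be part of that general gain. At 120 h 7 of 8 neutrophil markers had a peak, with 20525 bp in all, and 2 of 8 in each restored list, with 1503 to 3630 bp, against 1 of 8 and 568 bp in E2. Monocyte and macrophage markers were at 6 of 7 and 12182 bp at 120 h and at 3, 3 and 5 of 7 with 4555, 4786 and 7002 bp at 24, 40 and 72 h restored, against 2 of 7 and 4595 bp in E2. One of them, Ccr2, ran the other way from the other 6, with 0 bp at 120 h against 4244 bp in E2. All 6 myeloid progenitor markers had peaks in every list, with 11839 bp at 120 h and 25785 to 28274 bp in the restored lists, against 26863 bp in E2. Lymphoid markers were at 2 of 6 and 1595 bp at 120 h, against 1 of 6 and 3358 bp in E2, erythroid and megakaryocyte markers at 2 of 5 and 1524 bp, against 1 of 5 and 633 bp, and fibroblast and epithelial markers at 1 of 5 and 227 bp, against 0 of 5. Of 4 mast cell and basophil markers only Gata2, which progenitors also express, was marked, over 2531 bp at 120 h against 1307 bp in E2. Cd3e, Cd4, Gata1, Hba-a1, Fcer1a, Cpa3, Ms4a2, Col1a1, Col1a2, Epcam and Krt8 had no peak in any list. The part of these marker differences in the results for the 8 genes was not tested.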

How the data were processed

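Peak lists of 10 samples were used, 5 for H3K4me3 and 5 for V5 or AM, out of 21 samples with lists and 30 in all. Per the labels' protocols, each histone ChIP took 500 ug of fixed chromatin and each V5 or AM ChIP 30 ug. The deposited lists give the chromosome, start and end of each peak with no score, height or p-value, so depth is unknown and no interval could be given. Bowtie2 2.0, BWA and MACS2 2.0 and the builds mm9 and mm10 are named in the submitters' processing notes. Which of them belongs to which file, how peaks were thresholded and how inputs entered are not given in the sources used here. Builds were inferred: 58.5% to 69.3% of the peaks of each H3K4me3 list lay within 1 kb of a GRCm38.p6 gene end, against 9.29% to 9.53% after a shift of 100 kb. The V5-Hoxa9-AM lists gave 11.7% against 5.66% (V5) and 16.4% against 5.83% (AM). The 3 short V5-ER-Hoxa9-AM lists gave no contrast by themselves (4.52% against 5.01% for V5 and 5.04% against 8.14% for AM in E2, 6.46% against 5.68% for V5 at 72 h), and their build rests on the coordinates they share with the V5-Hoxa9-AM V5 list. The 11 H3K27ac and H3K27me3 lists gave 6.18% to 11.0% against 6.58% to 11.6% and ended between 196957583 and 197003115 on chromosome 1, past its last gene end at 195176880; the H3K4me3 lists ended at 195241987 or before, those of 24 and 120 h also past that gene. The H3K27 lists were not used here.

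Peaks on chromosomes 1 to 19 and X were merged, and the covered length in each gene plus 1 kb was summed per list (Python 3.11.15, numpy 2.4.6, pandas 2.3.3). Ratios used a pseudocount of 50 bp and a threshold of 1 on the log2 scale. The code was tested on simulated peaks. Named genes were the 8, up to 4 called genes per pathway list and direction, the 2 nearest in profile to each of the 8, and genes sharing a peak or nearest to a site; some items under this rule and the marker lists are not reported here. The 8 genes, the lists and the tests were chosen with earlier results of these data known. Alternatives varied the window, the pseudocount, the peak width, the list length, the centring, the threshold and the distance to sites.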

Additional observations from a re-analysis of the deposited data

How the results depend on the processing

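At 120 h against E2, 5 of the 8 genes were higher, against 31.9% of all genes. Within 1 kb of the gene start it was 2 of the 6 genes with a known start, near the share of all genes there, 29.1%. The count was 3 when only a peak against no peak was counted, against 11.9% of all genes, as Tlr2 and Tlr4 had peaks in both lists. Under those same settings the count at each restored time against E2 was 1 and 1 in place of 2, and 2 and 2 genes in place of 4 were lower at 72 h restored than at 120 h, as were 2 within 1 kb of either gene end. With a threshold of 0.5, 4 genes were higher at 72 h restored than in E2 and 2 than at 40 h restored; with only peaks wider than their list's median, 1 was higher than at 40 h. In that last setting Pycard was called at 120 h against E2 and Il1b was not. For the comparisons of restored lists, the share of all genes was computed only in the reported setting.

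Over all genes, 3778 were higher and 157 lower at 120 h. The higher count was 2484 (21.0%) after subtracting the median of genes marked in both lists, 6394 (54.0%) at a threshold of 0.5 and 1406 (11.9%) by peak against no peak. The lower count was 328, 336 and 92 under those settings, 72 at the gene start, 395 with wide peaks and 252 with lists cut to their 17497 widest peaks. Of the pathway genes 21 in place of 45 were higher by peak against no peak, and 0 in place of 1 were lower at the gene ends, at the gene start and with wide peaks. The 6 lists moved too, beside shares of all genes of 29.1% at the gene start, 37.0% with wide peaks and 26.5% with lists of equal length. By peak against no peak the higher count was 4 in place of 8 for Toll-like receptors, 4 in place of 8 for their partners, 4 in place of 9 for inflammasome genes, 3 in place of 6 for the interleukin-1 family and 2 in place of 8 for NF-kB genes. Within 1 kb of the gene start it was 5, 4 and 5 for Toll-like receptors, partners and NF-kB genes, with wide peaks 3, 2 and 3 for Toll-like receptors, the interleukin-1 family and other pattern receptors, and with lists of equal length 4 for Toll-like receptors. Less the median it was 5 for inflammasome and 5 for NF-kB genes, and at a threshold of 0.5 it was 14 for NF-kB genes.

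Of the 8 genes, 0 had a V5-ER-Hoxa9-AM site of the 72 h list within 5 kb and 2 within 25 kb and within 50 kb, in place of 1. Within 50 kb 5 in place of 3 had an AM site, and 1 in place of 0 had a V5-ER-Hoxa9-AM V5 site in E2. The share of all genes with a site was computed only within 10 kb. A wider window takes in more sites near any gene, so the counts at other distances have no background. When H3K4me3 had to cover 50% of a V5 site, 0 sites in place of 2 were covered in E2, and 1 in place of 3, 3, 3 and 4 at 24, 40, 72 and 120 h. No called result changed direction, while the uncalled Myd88 ratio at 120 h against E2 was -0.07 after subtracting the median of genes marked in both lists and 0.42 as reported. The uncalled ratios of Myd88 and Pycard at 72 h restored against E2 also turned negative there, and those of Pycard and Casp1 at 72 h restored against 120 h, all near 0, changed sign near the gene ends or start, for Pycard also with wide peaks and equal lists. Of the recomputed summary counts, 103 stayed within 1.5 times the reported one and 37 did not; of the counts per list, by the same limit, and the ratios per gene, by their call, 252 held and 24 did not. No paired analysis was possible because each condition had 1 library, and for the same reason no replicate could be left out. Without peak heights or depth, a gene with no peak may still carry the mark.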

Other observations

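Beyond 10 kb, the gene with no nearer V5 site that was marked at 120 h only, Cd14, had a V5 site of 1065 bp at a distance of 15810 bp, chr18:36708190-36709254, which was also in the AM list of V5-Hoxa9-AM cells and in the 72 h restored V5 list of V5-ER-Hoxa9-AM cells. Its nearest gene was E230025N22Rik. A second Cd14 site, of 230 bp, lay 11373 bp away. Il1b had a site of 506 bp at a distance of 26113 bp, chr2:129337951-129338456, in the V5 and AM lists of V5-Hoxa9-AM cells and in the V5 list of V5-ER-Hoxa9-AM cells in E2. Whether any of these sites acts on the gene was not tested.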
